A study of Caenorhabditis elegans with 4 samples.

Results

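MRE-11 peaks on chromosome IV were studied in Caenorhabditis elegans by chromatin immunoprecipitation followed by sequencing (ChIP-seq). They comprise every peak that 3 deposited peak lists place on that chromosome. The series-wide list, which is the primary set, placed 536 of its 2720 peaks on IV. The list of ChIP replicate 1 placed 459 of 2471 there and that of replicate 2 placed 256 of 1294. The replicate lists were used to ask which series-wide peaks each library supports, with an overlap of at least 1 bp counting as support. Coordinates are on WormBase WS220 and scores are the authors' own value for each peak, on a scale that the files do not name.

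The worms were hermaphrodites of the strain fem-2(b245), whose mutation lies on chromosome III in a sex determination gene, and were kept at 20 °C. The labels call them young adults with a germline, whereas the growth protocol describes gravid adults. There were 2 ChIP libraries, made with an affinity-purified rabbit polyclonal antibody against MRE-11, and 2 input libraries of the same worms, whose values were not used here. All samples share the fem-2(b245) genotype, and no group without MRE-11 is among them. The worms were ground whole, so binding in germline and in somatic nuclei cannot be told apart. Separate cultures for the replicates are not mentioned in the labels. Read depth is unknown, so a stretch without a listed peak is not shown to lack MRE-11.

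MRE-11 is the nuclease subunit of a conserved complex with RAD-50 that binds and trims the ends of broken DNA. In the worm germline it also acts in forming the meiotic breaks that start recombination. Chromosome IV is an autosome on which crossovers fall mostly on the arms and seldom in the centre. It also carries most of the species' 21U-RNA genes, the piRNA genes that protect the germline from foreign sequence, which are packed into broad regions of the chromosome.

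IV was of middling peak density among the 6 chromosomes. Replicate 1 had 26.3 peaks per Mb on IV and replicate 2 had 14.7, a mean of 20.5 ± 8.22 (SD, n = 2). That SD includes the difference in length of the whole lists, 2471 peaks in replicate 1 against 1294 in replicate 2. IV held place 4 of 6 by density in each of these lists. In the series-wide list it held place 3, with 30.7 peaks per Mb. For the other 4 autosomes the range was 19.04 to 37.1 peaks per Mb in replicate 1, 8.73 to 21.1 in replicate 2 and 19.3 to 42.6 series-wide, so IV lay inside it each time. Replicate 1 peaks covered 6.01% of IV, replicate 2 peaks 3.88% and series-wide peaks 1.28%.

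**Figure D1:**
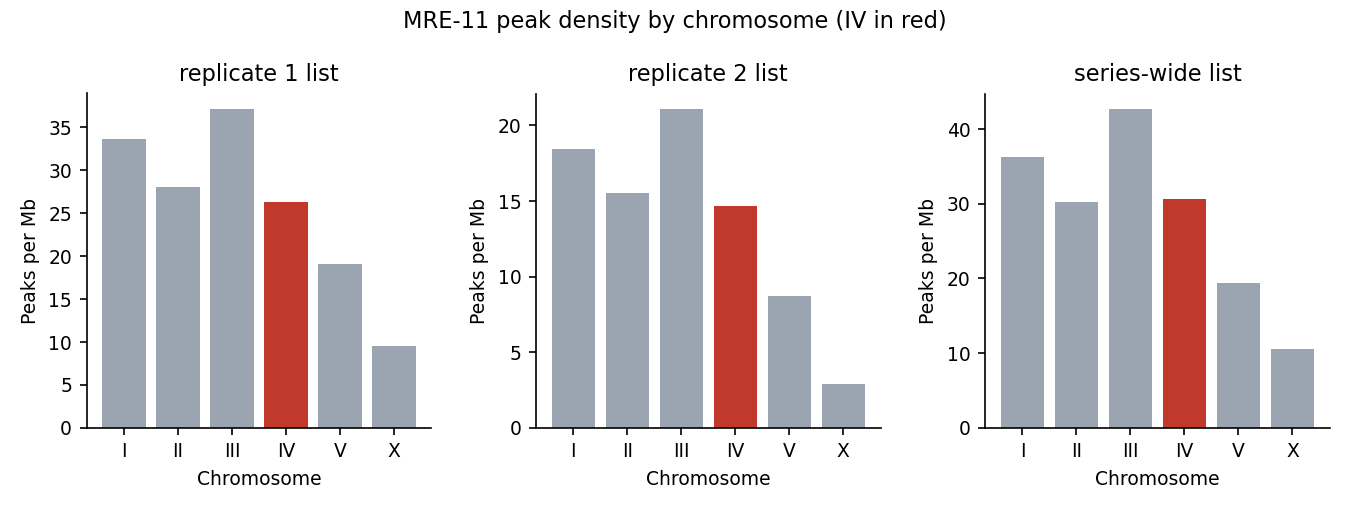
Peaks per Mb (vertical axis) on each of the 6 chromosomes (horizontal axis) in each of the 3 lists, with IV in red and 1 bar per chromosome. IV stands at 26.3, 14.7 and 30.7 peaks per Mb, below chromosomes I and III and above V and X in each list.

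Peak scores on IV were high in the replicate lists and not in the series-wide list. The median score on IV was 336 in replicate 1, the highest of the 6 chromosomes, where the other 4 autosomes ran from 239 to 297. In replicate 2 it was 368, above the other 4 autosomes at 219.7 to 327 and below X. In the series-wide list it was 7.435, below the other 4 autosomes at 7.53 to 8.165. The order thus differed between the lists. One chromosome among 6 cannot reach an exact permutation p below 0.167, so no score is called particular to IV.

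The lists also differed in how wide a peak is. On IV the median replicate 1 peak was 1886 bp wide, the median replicate 2 peak 2386 bp and the median series-wide peak 305 bp. Replicate 1 peaks on IV were 1018 to 6982 bp wide, replicate 2 peaks 1035 to 8118 bp, and series-wide peaks 146 to 2058 bp. Within each list, wider peaks tended to have higher scores. Spearman's rho of score and width was 0.75 over the 459 peaks of replicate 1, 0.58 over the 256 of replicate 2 and 0.71 over the 536 series-wide peaks. These are descriptions over peaks of the same library and carry no test.

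The first question was whether both libraries mark the same stretches of IV. Nearly every replicate 2 peak on IV recurred in replicate 1, and most replicate 1 peaks, by a narrow margin, recurred in replicate 2. Of the replicate 2 peaks on IV, 250 of 256 (97.7%, 95% exact Clopper-Pearson interval 94.97 to 99.1%) overlapped a replicate 1 peak, where 97.9% of the whole replicate 2 list did. Of the replicate 1 peaks on IV, 252 of 459 (54.9%, 50.2 to 59.5%) overlapped a replicate 2 peak, where 51.7% of the whole replicate 1 list did. Both shares on IV lie near these backgrounds, and their intervals, which cover counting error only, include them. The replicates also had bases in common on IV, with 85.4% of the bases under replicate 2 peaks lying inside replicate 1 peaks and 55.2% of those under replicate 1 peaks inside replicate 2 peaks.

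Most matched peaks lay close to each other. Over the 250 pairs, each replicate 2 peak being paired with its strongest overlapping replicate 1 peak, the midpoints were a median of 162 bp apart. In 205 pairs (82%) they were within 500 bp, and the largest distance was 4968 bp. The pairs held 245 different replicate 1 peaks, so some of these were used more than once. Paired peaks were about equally wide, with median widths of 2275 bp in replicate 1 and 2410 bp in replicate 2, and the replicate 2 peak was the wider one in 127 pairs.

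Matched peaks with high scores in one replicate tended to have high scores in the other. Spearman's rho was 0.81 and Pearson's r on log10 scores was 0.78 over the 250 pairs, and rho ran from 0.76 on chromosome II to 0.89 on X over the other chromosomes. Scores were lower in replicate 2 in 212 pairs and higher in 38. The replicate 1 score was at least 4 times the replicate 2 score in 26 pairs, and the opposite held in 1 pair. That pair lay at 14056637 to 14059577, where replicate 2 scored 1636.74, rank 10 on IV, and replicate 1 scored 269. The widest gap in the other direction was at 11854131 to 11858319, where replicate 1 scored 966 and replicate 2 scored 58.4.

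**Figure D2:**
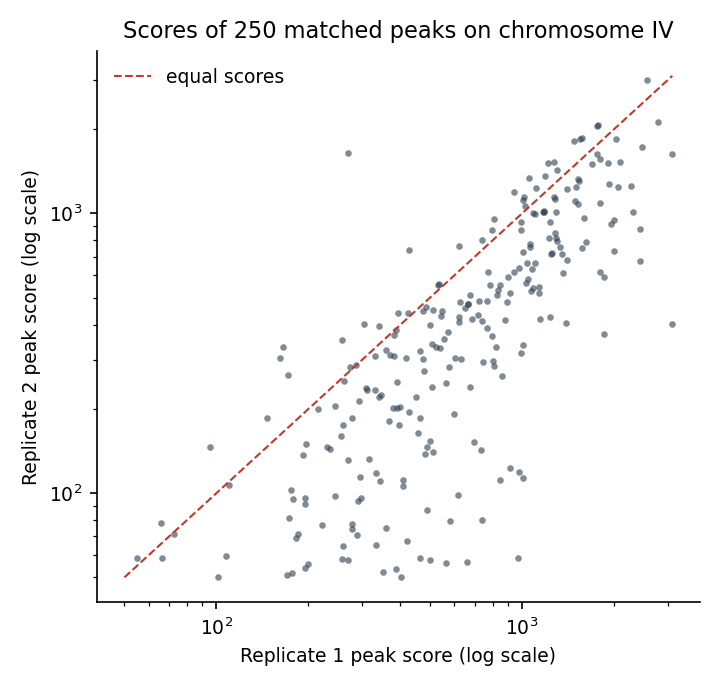
Replicate 1 score (horizontal axis, log scale) against replicate 2 score (vertical axis, log scale) for the 250 matched peaks on IV, 1 point per pair, with a dashed line at equal scores. Most points, 212 of 250, lie below the line, and scores rise together with a Spearman's rho of 0.81.

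The 10 regions that ranked best in both replicates ran from 794043 to 17282002, with none between 6326548 and 11478985. Ranks count down from the strongest peak on IV in each list, and regions are given by their replicate 2 coordinates. The region at 11478985 to 11482357 led jointly, with scores of 2566 in replicate 1 and 2988 in replicate 2, which was the highest replicate 2 score on IV. It shared its mean rank of 2.50 with the region at 17276734 to 17282002 near the right end, which scored 2788 and 2123. Both stand among the 4 strongest peaks of each replicate.

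Next came 13880733 to 13885070, which reached 3100 in replicate 1, where scores of that list pile up, and 1635 in replicate 2. The region at 16654703 to 16657896 scored 2462 and 1726. At 6321516 to 6326548 the scores were 2028 and 1838, and at 13095689 to 13100335 they were 2088 and 1521. The remaining regions of the best 10 lay at 3725395 to 3727037, 13238681 to 13242453, 2494365 to 2497716 and 794043 to 797699, with scores of 1751 to 2262 in replicate 1 and 1249.6 to 2070.5 in replicate 2. All 10 regions held a series-wide peak, and that at 17276734 to 17282002 held 4. Of the 20 strongest peaks on IV in each replicate, 8 were in both sets.

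Only 2 peaks on IV reached 3100 in replicate 1 and none did in replicate 2. The second of them, at 9065715 to 9069206, is a case where the replicates differ. Replicate 1 scored it 3100, joint first of its list on IV, whereas replicate 2 scored it 401, rank 121 of 256. It held 2 series-wide peaks. The one at 9066096 to 9067635 was 1540 bp wide and scored 9.30, rank 225 of 536, and the one at 9067901 to 9068667 was 767 bp wide and scored 18.46, rank 97.

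Peaks of one replicate without a partner were mostly weak. On IV the median score was 156 for unmatched and 622 for matched replicate 1 peaks, and their median widths were 1515 and 2237.5 bp. Among replicate 2 peaks, the 6 unmatched ones had a median of 61.8 and the matched ones of 385. The strongest of these 6 lay at 3742084 to 3743315 with a score of 90.2, and it was the only one of them that held a series-wide peak. The others of the strongest 5 lay at 9341201 to 9342778, 8781833 to 8782959, 7817468 to 7818554 and 16400701 to 16402183, with scores of 58.4 to 78.9.

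Some strong replicate 1 peaks also had no partner. The strongest of these on IV was at 14475950 to 14481500, 5551 bp wide, with a score of 1943 and rank 14. It held 8 series-wide peaks, more than any other replicate 1 peak on IV, and none of these scored above 10.56. The next were at 8467026 to 8471620 with a score of 1803, at 15373461 to 15377269 with 1487, and at 12021804 to 12025508 with 1253. They held 4, 4 and 3 series-wide peaks. The last of the 5, at 11609791 to 11615813, was 6023 bp wide with a score of 1208 and held no series-wide peak. These 5 peaks were 3705 to 6023 bp wide, where the list's median on IV was 1886 bp. All 5 belong to the strongest of 5 equal score groups of replicate 1 peaks, whose median width was 3370.5 bp.

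Recovery rose with score. When the replicate 1 peaks on IV were split into 5 equal score groups, replicate 2 overlapped 12.1% (6.19 to 20.6%) of the weakest group, 59.8% (49.04 to 69.9%) of the middle one and 92.4% (84.9 to 96.9%) of the strongest. The median width of these replicate 1 peaks rose too, from 1241 bp in the weakest group to 3370.5 bp in the strongest. Whether width accounts for the recovery was not tested. Of replicate 2 peaks, all in the upper 4 groups and 45 of 51 in the weakest group overlapped a replicate 1 peak. The series-wide list held 81.05% of the replicate 1 peaks on IV, against 78.8% of that whole list, and 94.1% of the replicate 2 peaks, against 93.9%.

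The median score of replicate 1 peaks on IV was 99.2 without a series-wide peak and 427 with one. The strongest after the one at 11609791 was at 9045392 to 9049140 with a score of 723. Those at 3205936 to 3209954, 11070433 to 11076351 and 13360049 to 13362418 followed, with scores of 469 to 683. None of these 5 had a replicate 2 peak either.

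**Figure D3:**
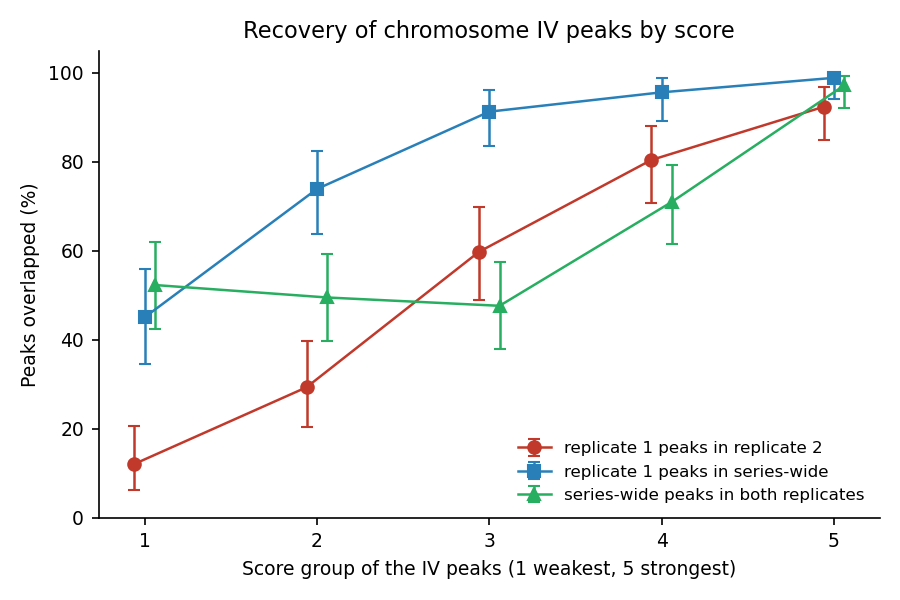
Share of peaks overlapped (vertical axis, percent) by score group (horizontal axis, 1 weakest and 5 strongest) on IV, for replicate 1 peaks in replicate 2 (red circles), replicate 1 peaks in the series-wide list (blue squares) and series-wide peaks in both replicates (green triangles). Bars are 95% exact Clopper-Pearson intervals. Recovery of replicate 1 peaks in replicate 2 climbs from 12.1% to 92.4%, while series-wide peaks stay between 47.7% and 52.3% in the lower 3 groups and reach 97.2% in the strongest.

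The series-wide peaks were then sorted by the replicates that support them. Of the 536 on IV, 341 (63.6%, 59.4 to 67.7%) overlapped a peak in both replicates, where 59.5% of the whole series-wide list did. A further 169 (31.5%, 27.6 to 35.7%) overlapped replicate 1 only and 1 overlapped replicate 2 only. The remaining 25 (4.66%, 3.04 to 6.81%) overlapped neither, where 5.96% of the whole list did. Over the other 4 autosomes together the share supported by both was 60.7% (58.5 to 62.9%), inside the interval for IV. The sources used here do not say which reads that list was called on, and support was not tested.

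Scores followed support, with a wide overlap between the classes. The median series-wide score on IV was 10.22 for peaks with both replicates, 6.09 with replicate 1 only and 4.85 with neither. Peaks with both ran from 1.5 to 49.62, and those with replicate 1 only from 1.43 to 37.89, so a low score did not mark a peak as unsupported. The strongest with neither were narrow and modest. They lay at 2096852 to 2097022 (score 9.65), 8607550 to 8607766 (7.53), 5062569 to 5062732 (7.30), 2602045 to 2602261 (6.45) and 7016646 to 7016829 (6.09), and were 164 to 217 bp wide. One strong peak, chosen after its values were seen, lacked replicate 2. It lay at 4184724 to 4185033, scored 37.89, rank 15, and sat in a replicate 1 peak that scored 452.

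**Figure D4:**
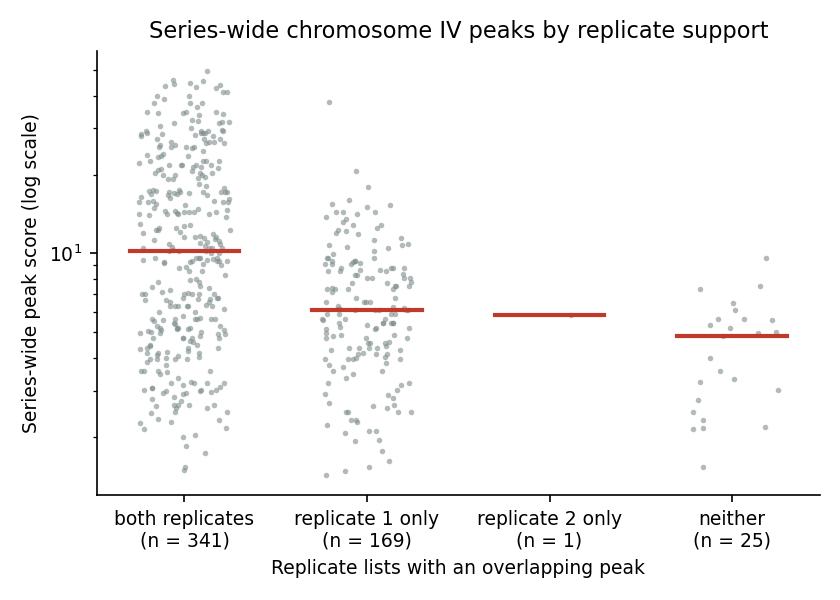
Series-wide score (vertical axis, log scale) of the 536 peaks on IV by the replicate lists that overlap them (horizontal axis), with 1 grey point per peak, spread sideways at random, and red lines at the medians. Medians fall from 10.22 with both replicates to 6.09 with replicate 1 only and 4.85 with neither, while the ranges overlap.

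The 10 strongest series-wide peaks were 297 to 963 bp wide, with a median of 477.5 bp. The median was 305 bp over all series-wide peaks on IV and 648 bp over the strongest of their 5 score groups. All 10 had a peak in both replicates, but some were far from the top of the replicate lists. The strongest, at 3725671 to 3726463, scored 49.62 and stood in a region scored 1772 by replicate 1 and 2070.5 by replicate 2. It was followed by 4390347 to 4390784 with 45.93, in a region scored 1528 and 1327, and by 4727814 to 4728180 with 45.29, in one scored only 621 and 426. They were followed by 9196182 to 9196698 with 44.82 and 13881424 to 13882334 with 44.35.

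The other 5 scored from 43.88 down to 41.36. They lay at 1094076 to 1094973, at 3313316 to 3313649, at 16845325 to 16845758, at 4720492 to 4720788 and at 13098427 to 13099389. The peak at 4720492 had rank 9 on IV in the series-wide list but rank 165 in replicate 1 and 194 in replicate 2, with replicate scores of 509 and 140.01. It is 297 bp wide, and the replicate peaks around it are 1168 and 1073 bp wide. Over these 10, replicate 1 ranks ran from 1 to 165 with a median of 40.5, and replicate 2 ranks from 3 to 194 with a median of 27. Of the 20 strongest series-wide peaks, 3 overlapped one of the 20 strongest of replicate 1 and 6 one of the 20 strongest of replicate 2. The lists differ in length and caller, so these ranks show no change in binding.

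The 5 widest series-wide peaks fell into a strong pair and 3 of middling score. The widest, 2058 bp at 16655423 to 16657480, scored 29.22, rank 37, and the next, 1800 bp at 11479380 to 11481179, scored 31.33, rank 31. Both lay in regions among the best 10 of the replicates. The following 3, at 13922241 to 13923836, 9066096 to 9067635 and 15188308 to 15189704, scored 9.30 to 9.48, ranks 216 to 225 of 536, in replicate 1 peaks that scored 1238 to 3100. Replicate 2 scored these last 3 between 401 and 426, ranks 113 to 121 of 256. Across the 510 series-wide peaks on IV with a replicate 1 peak, the series-wide score and the width of that replicate 1 peak had a Spearman's rho of -0.01, as a description. The relation was not flat. By series-wide score group, the median replicate 1 width was 2735 bp in the weakest of 5, 1996 bp in the middle one and 2766 bp in the strongest. A replicate 1 peak that held several series-wide peaks was counted once for each.

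Many replicate peaks on IV resolved into several series-wide peaks. Of the 459 replicate 1 peaks, 87 held none, 279 held 1, 61 held 2 and 32 held 3 or more. Those holding 1 had a median width of 1778 bp and a median score of 331, and those holding 3 or more had medians of 3869.5 bp and 1511. The share holding 2 or more was 20.3% (16.7 to 24.2%) on IV and ran from 14.6% on V to 18.8% on III over the other autosomes, inside the interval for IV on chromosome III only. This difference between chromosomes was not tested. In replicate 2, 54 peaks held 2 and 21 held 3 or more.

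A series-wide peak that was alone in its replicate 1 peak sat near that peak's middle. Over the 279 of this kind the midpoints were a median of 159.5 bp apart, and 261 (93.5%) lay closer to its middle than to its edges. The 231 that shared a replicate 1 peak were a median of 507 bp off centre. Sharing peaks were weaker, with a median series-wide score of 6.14 against 9.45 for those alone, yet 77.1% of them had both replicates against 58.4%. In the weakest of 5 score groups of series-wide peaks, 69 of the 96 with a replicate 1 peak (71.9%) shared it. The share was 45.4% in group 2, 40.8% in group 3 and 25.5% in group 4, and rose again to 45.4% in the strongest group.

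**Figure D5:**
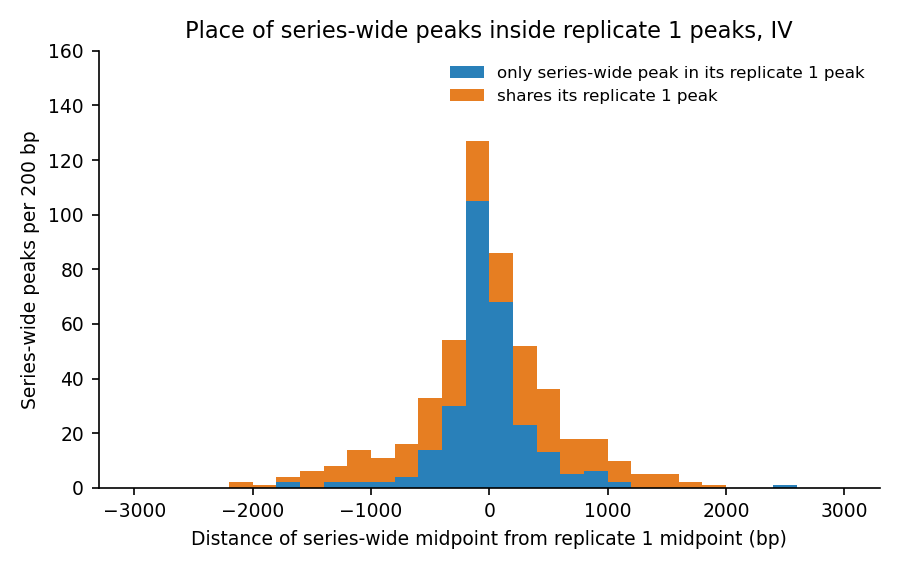
Distance in bp (horizontal axis) from the midpoint of a replicate 1 peak to that of a series-wide peak inside it, for 510 series-wide peaks on IV in steps of 200 bp (vertical axis, number of peaks). Peaks alone in their replicate 1 peak (blue) cluster at the centre, with a median distance of 159.5 bp, and those that share it (orange, stacked) spread wider, with a median of 507 bp.

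The last question was where on IV the peaks lie. When IV was divided into 3 equal parts, the central part had more peaks per Mb than either side in each list. From left to right, replicate 1 had 24.1, 31.4 and 23.4 peaks per Mb and replicate 2 had 12.7, 19.4 and 11.9. The series-wide list was flatter, with 28.7, 34.02 and 29.4. Support by both replicates was 64.1% on the left, 70.2% in the centre and 55.6% on the right. Median scores differed little along IV in the series-wide list, from 7.29 in the centre to 7.69 on the left.

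In steps of 1 Mb, the interval from 7 to 8 Mb held the most replicate peaks, 41 in replicate 1 and 28 in replicate 2. Among full intervals, 16 to 17 Mb held the fewest in replicate 1, 13, and in replicate 2, 8, a count it shared with 2 to 3 Mb. Series-wide peaks were most frequent from 7 to 8 Mb and from 11 to 12 Mb, with 48 in each. In the former, 81.2% of them had both replicates and in the latter 64.6%. From 15 to 16 Mb it was 40%.

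The left end of IV was empty in all 3 lists. The first replicate 1 peak began at 124807, the first replicate 2 peak at 125452 and the first series-wide peak at 125842, and all 3 mark the same region. That peak was not weak, with scores of 1221 and 818 in the replicates and a series-wide score of 34.76, rank 20. On chromosomes I, II, V and X a first peak was listed at base 1 or 2 in replicate 1, and on III at 85807. In replicate 2 the first peak began at 142580 on X, later than on IV, and at 108025 on I, earlier than on IV. The empty stretch on IV was thus the longest of the 6 chromosomes in replicate 1 and series-wide but not in replicate 2. The last replicate 1 peak ended at 17462061 and the last series-wide peak at 17461616, both in the same region, whereas replicate 2 ended at 17381095.

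The longest stretches without a series-wide peak lay on the right, from 15826926 to 16129350 (302 kb) and from 16153426 to 16414963 (262 kb), where the median gap on IV was 17.3 kb. The first held 4 replicate 1 peaks and no replicate 2 peak, and the second held 2 replicate 1 peaks and 1 replicate 2 peak. In replicate 2 an empty stretch of 869 kb ran from 15531239 to 16400700, and 10 replicate 1 peaks lay in it. Windows of 100 kb showed the opposite extreme at 4700001 to 4800000, which led both replicates with 10 and 7 peaks and held 10 series-wide peaks, 8 of them with both replicates. Its series-wide peaks included those at 4720492 and 4727814, which are among the 10 strongest.

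Dense windows were also found elsewhere on IV. In replicate 1 the windows 200001 to 300000 and 6700001 to 6800000 followed with 7 peaks each, and in replicate 2 the windows 7700001 to 7800000 and 7900001 to 8000000 with 6 each, all tied with others. The series-wide list led with 17 peaks at 15000001 to 15100000, where replicate 1 had 7 and replicate 2 had 6, and 10 of the 17 had both. It was followed by 7900001 to 8000000 with 12, all 12 with both, and by 11100001 to 11200000 with 11. The mean window held 3.06 series-wide peaks.

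Joining series-wide peaks at most 5 kb apart gave 358 groups on IV, of which 247 were single peaks and 14 had 4 or more members. Grouped peaks made up 53.9% of the list. The largest group was the 8 peaks within 14476676 to 14480808, inside the replicate 1 peak at 14475950, and none of them had replicate 2. The next had 7 peaks from 15077061 to 15081868, 2 of them with both replicates, and scores from 2.32 to 8.31. Another, tied with others at 5 peaks, ran from 384906 to 394071, and all 5 had both replicates, with a highest score of 23.67.

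The broad regions rich in 21U-RNA genes were taken as 5 to 7 Mb and 14 to 17 Mb. These whole-Mb bounds, set from general knowledge and not from the files, lie inside the known extent of the regions. Outer parts of the regions therefore count here with the rest of IV. With these bounds, replicate peaks were sparser inside than on the rest of IV, and more so in the region on the right. Over both regions the density relative to the rest was 0.703 for replicate 1 and 0.666 for replicate 2, a mean of 0.685 ± 0.026 (SD, n = 2). For the series-wide list it was 0.831. From 14 to 17 Mb alone it was 16.7 peaks per Mb in replicate 1 and 8.67 in replicate 2, against 28.7 and 16.2 outside both regions. From 5 to 7 Mb it was 25.5 and 14. The ratio of the replicates rose to 0.962 when the bounds were moved out by 1 Mb, and that of the series-wide list to 1.06, above 1. The result therefore depends on where the bounds are set, and no test was made. The right region lies inside the right one of the 3 equal parts of IV, and its peaks count in the density of that part. That part held fewer peaks per Mb than the central part in each list, and whether place along IV matters was not tested. The first 3 Mb of IV, at the other end, had 22.7 and 11.3 peaks per Mb in replicates 1 and 2. They were added for comparison after the values were seen.

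The region from 14 to 17 Mb, mainly its part from 14 to 16 Mb, also differed in how its peaks were split. These comparisons of split, support and width were chosen after the first results had been seen. Series-wide peaks stood at 27 per Mb there, against 32.3 outside both regions and 27.3 in the first 3 Mb. Of its 50 replicate 1 peaks, 19 (38%, 24.7 to 52.8%) held 2 or more series-wide peaks, against 74 of 409 (18.1%, 14.5 to 22.2%) on the rest of IV. Of its 81 series-wide peaks, 78 (96.3%) had replicate 1 but 37 (45.7%, 34.6 to 57.1%) had both replicates, against 66.8% (62.3 to 71.1%) on the rest of IV. The intervals take peaks as independent, which neighbours within 1 replicate peak are not. The replicate 1 peaks at 14475950 and 15373461, which no replicate 2 peak overlapped, held 8 and 4 of these series-wide peaks. Replicate 1 peaks were also wider there, with a median of 2162 bp against 1850 bp on the rest of IV. The split was uneven inside the region. Series-wide peaks per replicate 1 peak were 1.88 from 14 to 15 Mb, 1.67 from 15 to 16 Mb and 1.23 from 16 to 17 Mb. In the 1 Mb steps before 14 Mb they ran from 0.85 to 1.33, and beyond 17 Mb they were 1.56. Support by both replicates was 46.7%, 40% and 56.25% in the 3 steps of the region. Whether width accounts for the split was not tested.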

How the data were processed

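ChIP-seq of MRE-11 was analysed from 3 deposited peak lists, 1 for each of the 2 ChIP libraries and 1 for the series. The build is WormBase WS220, per the file headers. The aligner BWA (version not given) and the build ce10 come from the submitters' processing notes. Each replicate list names MACS as its source and the series-wide list names MACS v2, per the file contents. Control input, thresholds and pooling are not given in the sources used here. Each deposited peak has a score of unnamed scale, which served to order peaks inside 1 list and to correlate the replicates. Scores of paired replicate peaks were also compared, as a description. Samples were grouped by title.

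Shares carry 95% exact Clopper-Pearson intervals that take peaks as independent and cover counting error only. The largest listed peak end stood for chromosome length. Peaks were placed by midpoint. No gene names or sequences are given, because no reference of this build was used here. The members, regions, lists and rules were chosen with earlier results of these data known. Named regions follow rank rules: the 10 strongest series-wide peaks, the 10 best by mean rank in both replicates, the 5 widest, the 5 strongest unmatched or unsupported of each kind, and the largest groups, windows and gaps. Functions were tested on simulated peaks. Python 3.11.15, numpy 2.4.6, pandas 2.3.3, scipy 1.17.1 and matplotlib 3.10.9 were used.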

Additional observations from a re-analysis of the deposited data

How the results depend on the processing

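No paired analysis was possible because the input libraries' values were not used here and the ChIP libraries form 1 group. Of 25 alternative values for 8 results, 17 stayed within the limit set for their result, and 8 moved. The limit was the SD, the interval or 1.5 times the value reported, and for the rank correlation a fixed margin. The replicate density and density ratio with 1 replicate left out always lie within the SD of 2 replicates. Those values are among the 17 by construction and show no stability. The series-wide density ratio of the 21U-RNA regions also counts as unmoved, though it went from 0.831 to 1.06, above 1, with both regions widened by 1 Mb. Support of series-wide peaks on IV by both replicates was 0.933% under 50% reciprocal overlap, which narrow peaks inside wide ones seldom meet, and 76.7% among the stronger peaks (score no lower than the median of its whole list). Support by the kept replicate ran from 63.8% to 95.1% when 1 replicate was left out. Matching of replicate 2 peaks fell to 92.2% under 50% reciprocal overlap. The mean replicate density on IV was 11.8 peaks per Mb among the stronger peaks, where fewer are counted, and ran from 14.7 to 26.3 when 1 replicate was left out. The mean replicate density ratio of the 21U-RNA regions was 0.746 among the stronger peaks, 0.856 with the right region cut by 1 Mb on each side and the left one, only 2 Mb wide, kept, and 0.962 with both regions widened by 1 Mb on each side as far as IV reaches, and ran from 0.666 to 0.703 when 1 replicate was left out. The cause was not tested for the ratios. Depth is unknown, so unlisted regions cannot be told from regions below the callers' limits.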

Other observations

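The densest series-wide window on IV, 15000001 to 15100000, is built from modest peaks. Its 17 series-wide peaks had a median score of 5.86 and a highest score of 25.98, and they covered 7.23% of the window, whereas its 7 replicate 1 peaks covered 24.04% with a median width of 3330 bp. At 7900001 to 8000000 the 12 series-wide peaks had a median score of 8.765, and the 6 peaks of each replicate covered 21.1% and 22.9% of the window. At 4700001 to 4800000 the 10 series-wide peaks were narrower, with a median width of 298 bp, and stronger, with a median score of 12.495 and a highest score of 45.29.

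A few replicate 2 peaks on IV had a replicate 1 partner and still no series-wide peak. The strongest, chosen after their values were seen, were at 7470667 to 7474147 with a score of 305 and at 4467870 to 4471756 with 203. Replicate 1 scored these regions 161 and 398.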
